A study of Homo sapiens with 8 samples.

Results

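Genes private to 1 washed-out population of nickel-treated cells were examined, that is, genes that were expressed in Ni-W or in HCl3 and were low in the other of the pair. The members were chosen by the deposited RPKM values (reads per length of transcript and per depth of sequencing) of those 4 libraries. A gene was a member where RPKM was at least 0.5 in both libraries of a population and the smaller of these values was at least 3 times the largest value in the other population. The rule found 87 of 25411 listed genes, 35 private to Ni-W and 52 private to HCl3. Members made up 0.696% of the 12492 genes with an RPKM of at least 0.5 in both libraries of either population. Since the values of Ni-W and HCl3 selected the members, the difference between Ni-W and HCl3 is given below as a description without a test, and UT and Ni-E are the libraries that the rule did not use.

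All libraries came from BEAS-2B, a line immortalised from the human bronchial epithelium, with 2 libraries in each of 4 groups. UT cells received no nickel, and Ni-E cells grew for 6 weeks with 100 µM of the soluble salt NiCl2. Ni-W cells had the same 6 weeks of 100 µM NiCl2 and were then grown without nickel for more than 6 months as a population that started from 1 exposed cell, so its libraries repeat a clone and not the exposure. HCl3 carried the treatment text of Ni-W, but how long it was kept without nickel and how it relates to Ni-W were not given. Experiment numbers in the labels were 2 for both Ni-E libraries and 3 and 4 for HCl3, with none for UT or Ni-W. Experiment, clone and group therefore cannot be told apart. A P value measures the spread between such libraries only.

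Cells of a line that is grown from single founders differ in which genes are switched on, and a founder passes its pattern of silent and active genes to its descendants through DNA methylation, histone marks and bound transcription factors. Nickel ions are known to inhibit iron-dependent dioxygenases, among them histone and DNA demethylases and the prolyl hydroxylases of the hypoxia response. Genes that are off in most cells of a tissue and are turned on in some clones, such as clustered protocadherins, are frequently studied for this kind of stable variation.

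Total counts ran from 26383920 to 45692298 reads a library, and 3 reads, the floor used below, were between 6.57e-06 and 1.14e-05% of a library. The median log2 ratio of HCl3 to Ni-W was 0.01 across 11034 genes on the RPKM scale, so the populations were on the same scale. Keratins KRT7, KRT8 and KRT18 were at 144 RPKM or more in every library and EPCAM was between 0.95 and 1.79 RPKM, while the airway markers CDH1, KRT5, NKX2-1, SCGB1A1 and FOXJ1 stayed at or under 0.29 and FOXA2 at 0. FOXA1 was between 0.28 and 0.83 RPKM, and KRT19 reached 0.53 to 0.78 in Ni-W and HCl3 and at most 0.02 in UT and Ni-E. Of the 12 epithelial markers, 6 were at 0.5 RPKM or more in at least 1 library, so the epithelial label was met in part. COL1A1, a fibroblast collagen, was at 178 to 454 RPKM in all 8 libraries.

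The 250 bases before the start of 7 members are shown because these genes lie near another member that was high in the same population. GAL with MRGPRF and MIR4690 with CST6 also lie within 500 kb of each other, but no RefSeq window was matched for them. The sequences are those of RefSeq on GRCh38.p14, given 5′ to 3′ on the strand of the gene, with each CpG in capitals, the dinucleotide at which DNA is methylated. ENPP5 (chr6:46170981-46171230, minus strand), RCAN2 (chr6:46491971-46492220, minus strand) and SLC25A27 (chr6:46652725-46652974, plus strand) were private to Ni-W.

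ENPP5: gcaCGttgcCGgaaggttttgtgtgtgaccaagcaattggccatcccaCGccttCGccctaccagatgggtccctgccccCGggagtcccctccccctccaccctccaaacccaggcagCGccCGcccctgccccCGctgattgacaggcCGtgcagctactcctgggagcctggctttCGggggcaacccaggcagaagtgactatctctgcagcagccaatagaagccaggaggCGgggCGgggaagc

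RCAN2: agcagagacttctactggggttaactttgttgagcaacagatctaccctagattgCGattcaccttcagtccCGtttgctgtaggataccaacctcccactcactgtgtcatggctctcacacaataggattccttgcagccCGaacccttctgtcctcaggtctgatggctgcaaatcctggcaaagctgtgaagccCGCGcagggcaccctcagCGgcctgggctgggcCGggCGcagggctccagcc

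SLC25A27: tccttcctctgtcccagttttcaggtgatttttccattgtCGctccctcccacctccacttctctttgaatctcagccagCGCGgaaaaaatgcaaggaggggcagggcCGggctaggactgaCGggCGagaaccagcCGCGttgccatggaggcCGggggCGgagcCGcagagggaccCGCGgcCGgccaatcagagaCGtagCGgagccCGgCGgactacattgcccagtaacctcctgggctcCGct

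TRIM58 (chr1:247856937-247857186), OR2W3 (chr1:247895337-247895586), PCDHGB7 (chr5:141417427-141417676) and PCDHGA11 (chr5:141420801-141421050), all on the plus strand, were private to HCl3.

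TRIM58: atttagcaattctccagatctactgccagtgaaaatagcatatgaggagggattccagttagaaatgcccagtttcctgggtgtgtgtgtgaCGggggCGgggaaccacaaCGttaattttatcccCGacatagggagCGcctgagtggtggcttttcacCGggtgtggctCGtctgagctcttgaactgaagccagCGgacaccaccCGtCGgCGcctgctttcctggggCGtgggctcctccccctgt

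OR2W3: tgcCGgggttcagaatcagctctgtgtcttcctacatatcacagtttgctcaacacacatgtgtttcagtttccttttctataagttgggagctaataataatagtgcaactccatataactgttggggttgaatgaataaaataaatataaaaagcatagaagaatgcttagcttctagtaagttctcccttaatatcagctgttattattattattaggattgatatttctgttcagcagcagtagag

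PCDHGB7: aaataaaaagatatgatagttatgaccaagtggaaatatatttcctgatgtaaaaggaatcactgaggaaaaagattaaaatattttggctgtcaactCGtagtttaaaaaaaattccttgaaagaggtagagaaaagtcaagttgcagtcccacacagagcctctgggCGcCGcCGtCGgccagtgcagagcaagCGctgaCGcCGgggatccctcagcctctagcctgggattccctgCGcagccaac

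PCDHGA11: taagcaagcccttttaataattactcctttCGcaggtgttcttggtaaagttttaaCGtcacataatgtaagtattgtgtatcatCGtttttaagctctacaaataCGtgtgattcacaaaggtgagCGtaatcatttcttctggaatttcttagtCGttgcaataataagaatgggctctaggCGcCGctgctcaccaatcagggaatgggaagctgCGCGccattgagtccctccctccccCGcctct

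These windows held 12, 8 and 19 CpG for ENPP5, RCAN2 and SLC25A27, 12 and 1 for TRIM58 and OR2W3, and 9 and 11 for PCDHGB7 and PCDHGA11. The windows of TRIM58 and OR2W3 thus differed widely in CpG, while both genes were high in HCl3. The listed OR2W3 gene spans 0.94 kb and lies 15.5 kb beyond TRIM58 on the same strand. Whether its reads start at this window or run on from TRIM58 was not tested. A RefSeq window was matched for 30 of 35 members private to Ni-W (85.7%), for 29 of 52 private to HCl3 (55.8%) and for 9881 of the 12492 genes (79.1%), and a comparison of promoter composition is void because the last of these shares are under 80%.

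**Figure D1:**
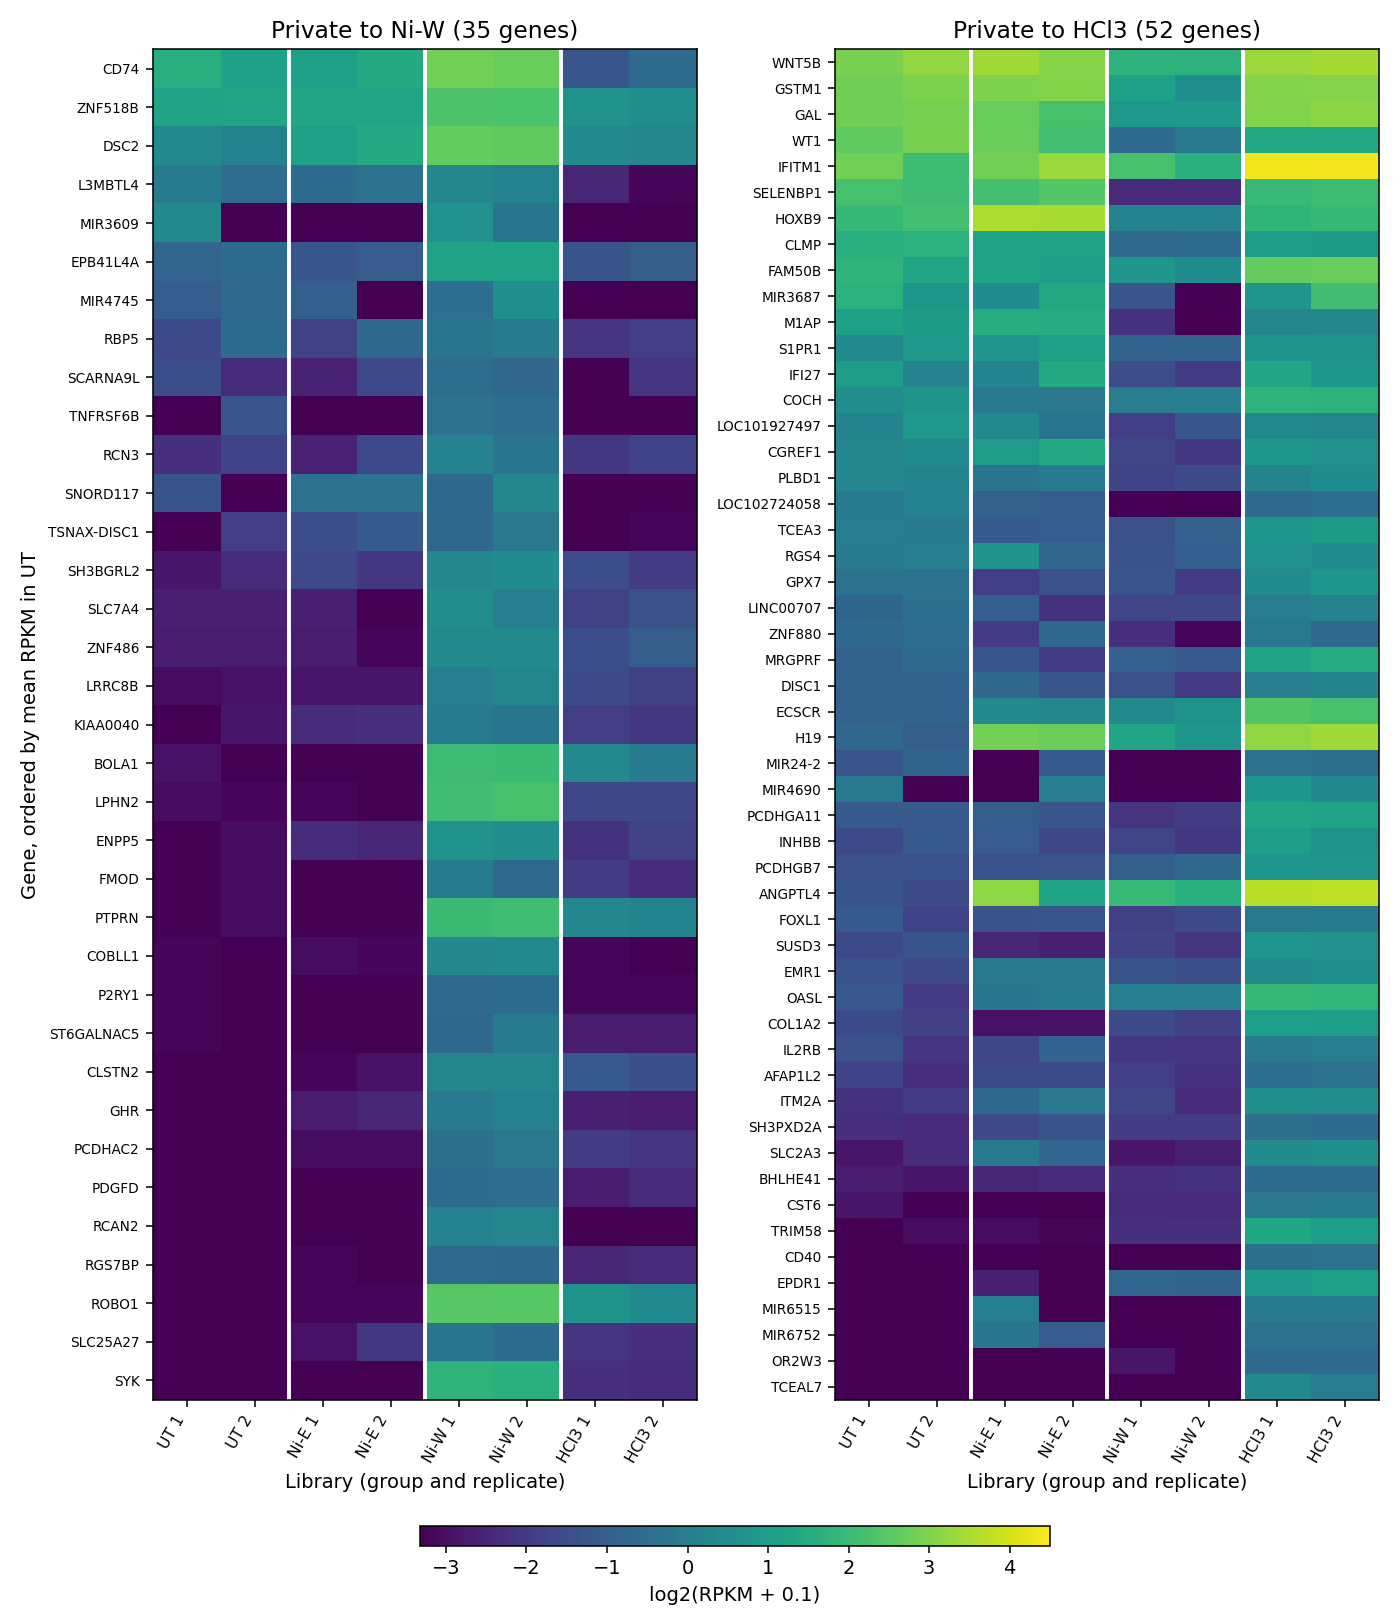
Expression of the 35 genes private to Ni-W (left) and the 52 private to HCl3 (right) in each of the 8 libraries, as log2(RPKM + 0.1), with genes ordered by mean RPKM in UT. Dark cells are low: most genes private to Ni-W were dark in UT and Ni-E (median of the mean RPKM 0.02 and 0.03), while those private to HCl3 were mostly visible there (0.455 and 0.503).

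The sets differed in where the untreated cells stood. Across the 35 genes private to Ni-W, UT had a median of the mean RPKM of 0.02, Ni-E 0.03, Ni-W 1.03 and HCl3 0.145. Across the 52 genes private to HCl3 UT had 0.455, Ni-E 0.503, Ni-W 0.212 and HCl3 1.52. The median over all 12492 genes was between 9.73 and 10.1 RPKM in each group, so the median member of either set was a low gene, although IFITM1, ANGPTL4 and WNT5B in HCl3 were above the median of all genes. Fewer cells with a gene on and less RNA of it per cell cannot be told apart in such libraries. At or under 3 reads in both UT libraries were 18 of the 35 genes private to Ni-W and 10 of the 52 private to HCl3.

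A member was called gained where its own population passed the same rule against UT, and lost where UT passed it against the other population. Of the genes private to Ni-W, 26 of 35 (74.3%) were gained, 2 (CD74 and L3MBTL4) were lost and 7 were neither. By the same rule 3.15% of the 12185 genes expressed in Ni-W were higher there than in UT, and 0.162% of the genes expressed in UT were higher there than in HCl3. Of the genes private to HCl3, 24 of 52 (46.2%) were gained, 14 (26.9%) were lost and 14 were neither, beside 3.38% of the genes expressed in HCl3 that were higher there than in UT and 0.383% of the genes expressed in UT that were higher there than in Ni-W. The high values in 1 population and the low values in the other chose the members, so these shares had to exceed the background and nothing is read from their excess. The gained genes of HCl3 include MIR6515 and MIR6752, and the lost ones MIR3687, each with 4 reads or fewer in a HCl3 library.

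Gained genes were not always silent in the other population. Of the 26 gained genes private to Ni-W, 19 were also above both UT libraries in both HCl3 libraries. In 18 of them HCl3 reached at least 3 times the highest UT value, with more than 3 reads in each library. Of the 24 gained genes private to HCl3, 10 were above UT in Ni-W and 4 met the same limits there. In the remaining gained genes the other population was not above both UT libraries. Where both UT libraries were at 0.00 RPKM, as for SYK and ROBO1, only the limit of 3 reads applied. ST6GALNAC5 passed with 4 reads in each HCl3 library.

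**Figure D2:**
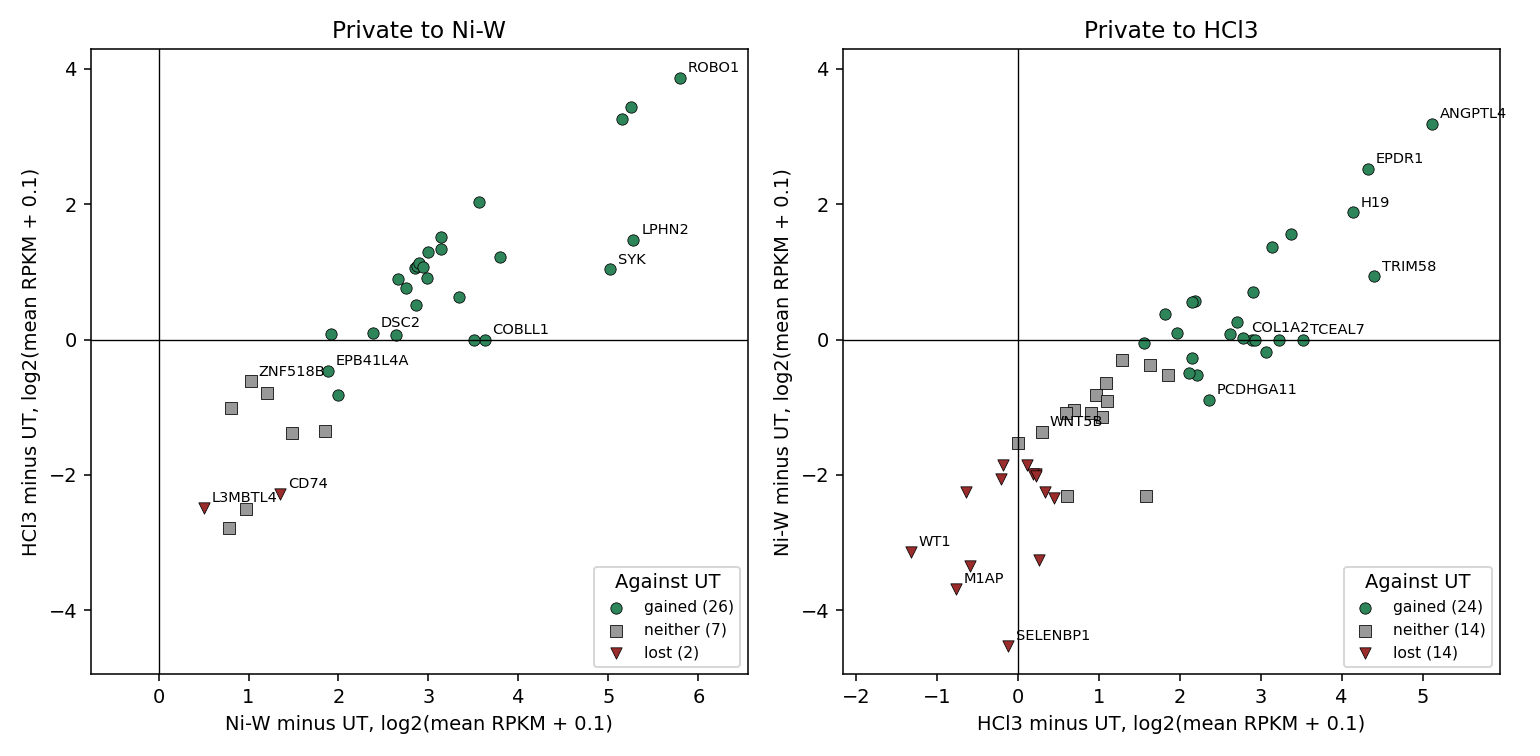
Difference from UT of the population in which a gene was high (x axis) and of the other population (y axis), both on the log2(mean RPKM + 0.1) scale, for genes private to Ni-W (left) and to HCl3 (right). Circles are gained genes (26 and 24), squares neither (7 and 14) and triangles lost genes (2 and 14); points above the horizontal line were higher than UT in both populations.

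Adhesion and guidance molecules were among the highest genes private to Ni-W. ROBO1, the receptor of SLIT guidance ligands, was at 0.00 RPKM in both UT libraries and 0.01 in both Ni-E libraries, at 5.44 and 5.49 in Ni-W, and at 1.47 and 1.25 in HCl3. DSC2, a cadherin of desmosomes, was at 1.19 and 0.99 RPKM in UT, with 2.08 and 2.63 in Ni-E, 6.23 and 5.97 for Ni-W, and 1.22 and 1.13 for HCl3. ROBO1 was thus raised over UT in both populations, while DSC2 in HCl3 lay beside UT.

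LPHN2, an adhesion receptor coupled to G proteins, was at or under 0.02 RPKM in UT and Ni-E, at 4.16 and 4.56 in Ni-W and at 0.22 and 0.22 in HCl3, where the smaller Ni-W value was 18.9 times the largest HCl3 value. CLSTN2, a calsyntenin of synapses, was at 0.00 in UT, 1.07 and 1.09 for Ni-W, and 0.35 and 0.27 RPKM for HCl3. PCDHAC2, which lies in the protocadherin alpha cluster, was at 0.00 in UT, at 0.64 and 0.76 RPKM in Ni-W and at 0.16 and 0.13 in HCl3. The span of PCDHAC2 overlaps 14 other protocadherin alpha genes on the same strand, so its reads are uncertain.

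Signalling proteins were also present. SYK, a tyrosine kinase best known in blood cells, was at 0.00 RPKM in all 4 UT and Ni-E libraries, 3.28 and 3.01 for Ni-W, and 0.11 and 0.10 for HCl3. Its smallest Ni-W value was 27.4 times the largest HCl3 value. The 4 blood cell markers summed to between 2.89 and 4.24 RPKM in Ni-W and between 2.86 and 4.14 in HCl3, nearly all of it CD14, and PTPRC and CD3E were at or under 0.04.

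PTPRN, a phosphatase-like protein of secretory granules, was at or under 0.02 RPKM in UT and Ni-E, at 3.97 and 4.21 in Ni-W and at 1.13 and 1.06 in HCl3. GHR, the growth hormone receptor, was at 0.00 in UT, against 0.05 and 0.08 in Ni-E, 0.85 and 0.98 for Ni-W, and 0.06 and 0.05 RPKM for HCl3. PDGFD, a platelet-derived growth factor, was at 0.00 in all UT and Ni-E libraries, at 0.56 and 0.59 RPKM in Ni-W and at 0.05 and 0.09 in HCl3. HCl3 thus held PTPRN well above UT, but GHR only at the level of Ni-E.

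P2RY1, an ADP receptor, was at or under 3 reads in each library of UT and HCl3 and reached 0.55 and 0.56 RPKM in the Ni-W libraries (88 and 61 reads, against 1 and 2 in HCl3). RGS7BP, which anchors regulators of G protein signalling, was at or under 0.01 RPKM in UT and Ni-E, at 0.54 and 0.53 in Ni-W and at 0.08 and 0.09 in HCl3. LRRC8B, a subunit of volume-regulated anion channels, was between 0.02 and 0.04 RPKM in UT and Ni-E, at 0.92 and 1.08 in Ni-W and at 0.25 and 0.18 in HCl3. These receptors and regulators shared a low level before the wash-out.

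CD74, the invariant chain that guides MHC class II molecules, had the highest level of the set. It was at 2.99 and 2.12 RPKM in UT and 2.03 and 2.63 in Ni-E, at 7.02 and 6.35 in Ni-W, and at 0.33 and 0.56 in HCl3. It was therefore above UT in Ni-W (2.62 times the UT mean) and under it in HCl3 (0.174 times). L3MBTL4, a protein with MBT domains that bind methylated histones, was at 0.84 and 0.59 RPKM in UT, 1.13 and 0.98 for Ni-W and 0.08 and 0.01 for HCl3. The gap at L3MBTL4 thus came mostly from HCl3, which was at 0.0629 times the UT mean, with Ni-W at 1.48 times.

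Zinc finger genes supplied ZNF518B and ZNF486. ZNF518B was between 2.27 and 2.39 RPKM in UT and Ni-E, at 4.85 and 4.76 in Ni-W and at 1.53 and 1.40 in HCl3. ZNF486 was at 0.05 in both UT libraries, 1.23 and 1.22 for Ni-W, and 0.27 and 0.39 RPKM for HCl3. ZNF518B, with CLSTN2 and ZNF486, sat just inside the limit, with ratios of the smaller Ni-W to the largest HCl3 value of 3.11, 3.06 and 3.13. Just outside were MRAP2 (2.98), RBM11 (2.91) and SEMA3E (2.84).

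Among metabolic and structural genes, BOLA1, a mitochondrial protein of iron-sulfur cluster handling, was at or under 0.03 RPKM in UT and Ni-E, at 4.03 and 3.95 in Ni-W, and at 1.19 and 0.81 in HCl3. EPB41L4A, a FERM domain protein, was at 0.48 and 0.56 RPKM in UT, at 2.17 and 2.21 in Ni-W, and at 0.31 and 0.39 in HCl3. COBLL1 was at or under 0.02 RPKM in UT and Ni-E, at 1.14 and 1.25 in Ni-W, and at 0.01 and 0.00 in HCl3 (4 and 0 reads, against 552 and 408 in Ni-W). COBLL1 was thus at 6 reads or fewer in every library but those of Ni-W, while BOLA1 was raised in both washed-out populations.

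SH3BGRL2 (1.12 and 1.29 RPKM in Ni-W), SLC7A4 (1.34 and 0.91), KIAA0040 (0.83 and 0.73) and ST6GALNAC5 (0.52 and 0.81), a sialyltransferase, were gained, with HCl3 between 0.05 and 0.28. FMOD, the matrix protein fibromodulin, was at 0.85 and 0.54 RPKM in Ni-W and at 0.16 and 0.10 in HCl3, and RCN3, a calcium-binding protein of the secretory pathway, at 1.01 and 0.71 in Ni-W and at 0.14 and 0.20 in HCl3. RBP5, a retinol-binding protein, was neither gained nor lost, at 0.23 and 0.58 in UT, 0.70 and 0.86 for Ni-W and 0.13 and 0.17 RPKM for HCl3. TNFRSF6B, a soluble decoy receptor, was at 0.65 and 0.60 in Ni-W and at 0.00 in both HCl3 libraries, and it overlaps a read-through gene on the same strand. The small RNAs MIR3609, MIR4745, SNORD117 and SCARNA9L had under 10 reads in a Ni-W library, and each overlaps a longer gene on its own strand.

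ENPP5, RCAN2 and SLC25A27 formed the only run of 3 members within 500 kb of each other. In the hg19 coordinates of the files they lie at chr6:46126919-46138747, chr6:46188467-46459804 and chr6:46620652-46645927, with 49.7 kb between ENPP5 and RCAN2 and 161 kb between RCAN2 and SLC25A27. ENPP5, of the ectonucleotide pyrophosphatase family, was at 0.00 and 0.02 RPKM in UT, with 0.10 and 0.08 in Ni-E, 1.53 and 1.32 for Ni-W, and 0.12 and 0.19 for HCl3. RCAN2, a regulator of calcineurin, was at 0.00 RPKM in UT, Ni-E and HCl3 and at 0.99 and 1.08 for Ni-W, which is at least 44.8-fold over the level of 3 reads in HCl3. SLC25A27, a mitochondrial carrier, was at 0.00 in UT, against 0.03 and 0.14 in Ni-E, 0.72 and 0.57 for Ni-W, and 0.13 and 0.11 RPKM for HCl3. RCAN2 was thus seen in Ni-W alone, while ENPP5 and SLC25A27 also had low values in Ni-E and HCl3.

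CYP39A1, which lies between RCAN2 and SLC25A27 and was under the limit of 0.5 RPKM, was at 0.20 and 0.13 in Ni-W, at 0.00 in UT and Ni-E and at or under 0.02 in HCl3. ENPP4, on the other side of ENPP5, was between 6.52 and 10.03 RPKM in all 8 libraries. The genes further along (TDRD6, PLA2G7, ANKRD66, MEP1A and GPR116) were at or under 0.02. The raised stretch therefore ran over 4 neighbouring genes and ended at ENPP4 on one side and at silent genes on the other.

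**Figure D3:**
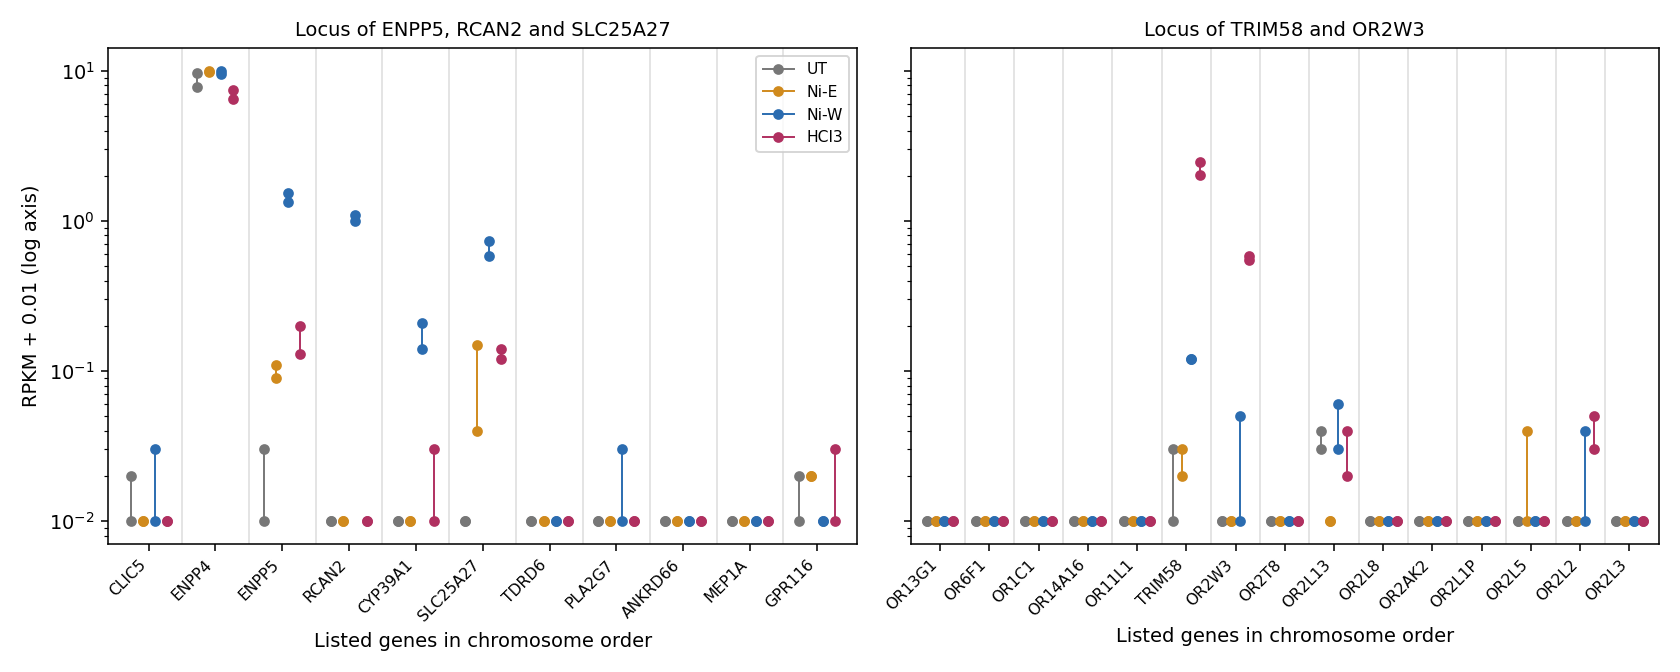
RPKM + 0.01 on a log axis for the 11 listed genes around ENPP5, RCAN2 and SLC25A27 (left) and the 15 listed genes around TRIM58 and OR2W3 (right), in chromosome order, with each point a library and a line joining the 2 libraries of a group. Ni-W stands alone at RCAN2 (0.99 and 1.08 RPKM). At TRIM58, HCl3 (2.45 and 2.00 RPKM) stands far above Ni-W (0.11 and 0.11 RPKM), which is itself above UT and Ni-E.

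Interferon-stimulated genes were found among the genes private to HCl3. IFITM1, which blocks the entry of viruses, was at 7.02 and 4.07 RPKM in UT, with 7.01 and 9.81 in Ni-E, 4.58 and 3.04 for Ni-W, and 19.98 and 20.65 for HCl3. OASL, a 2′-5′-oligoadenylate synthetase-like protein, was at 0.34 and 0.16 in UT, against 0.71 and 0.85 in Ni-E, 0.93 and 0.93 for Ni-W, and 3.65 and 3.43 RPKM for HCl3. IFI27 was at 1.93 and 1.02 in UT, with 1.05 and 2.59 in Ni-E, 0.27 and 0.15 for Ni-W, and 2.42 and 1.67 RPKM for HCl3. IFITM1 and OASL were thus highest in HCl3, whereas IFI27 in HCl3 overlapped UT and was low in Ni-W. These were 3 of the 39 genes of the interferon list that were expressed in either population (7.69%), beside 0.696% of all genes expressed there, and no gene of the list was private to Ni-W. The median log2 ratio of HCl3 to Ni-W was 0.24 over the list and 0.01 over all genes, and other lists had medians as large, such as collagens and matrix proteins (0.28) and the WNT family (0.27). IFITM1 has close paralogues, so its reads are uncertain.

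Secreted ligands and inhibitors included several of the most abundant genes private to HCl3. ANGPTL4, a secreted inhibitor of lipoprotein lipase, was at 0.31 and 0.25 RPKM in UT, against 8.88 and 2.26 in Ni-E, 3.73 and 2.97 for Ni-W, and 12.87 and 13.37 for HCl3. WNT5B, a WNT ligand, was at 7.48 and 9.34 in UT, with 10.34 and 8.33 in Ni-E, 3.24 and 3.15 for Ni-W, and 9.98 and 10.71 RPKM for HCl3. GAL, the neuropeptide galanin, was at 6.86 and 7.33 in UT, against 6.36 and 4.57 in Ni-E, 1.70 and 1.73 for Ni-W, and 7.93 and 8.67 RPKM for HCl3. ANGPTL4 was thus raised over UT in both populations, while WNT5B and GAL were near UT in HCl3 and under it in Ni-W.

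INHBB, a subunit of activin and inhibin, was between 0.22 and 0.37 RPKM in UT and Ni-E, at 0.21 and 0.14 in Ni-W and at 1.93 and 1.53 in HCl3. COCH, the matrix protein cochlin, was at 1.36 and 1.56 in UT, 0.87 and 0.92 for Ni-W, and 3.31 and 3.13 RPKM for HCl3. EPDR1, an ependymin-related secreted protein, was at 0.00 in UT, 0.49 and 0.46 for Ni-W, and 1.78 and 2.04 RPKM for HCl3. CST6, a cysteine protease inhibitor, was at or under 0.10 RPKM outside HCl3 and at 0.76 and 0.84 in it (19 and 22 reads, against 3 and 2 in Ni-W). HCl3 had the highest values of all groups for each of these secreted proteins.

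COL1A2, the second chain of type I collagen, was at 0.24 and 0.18 RPKM in UT, with 0.03 and 0.03 in Ni-E, 0.25 and 0.18 for Ni-W, and 2.05 and 2.01 for HCl3. The 6 fibroblast markers, of which COL1A2 is one, summed to between 219 and 246 RPKM in Ni-W and between 434 and 457 in HCl3, nearly all of it COL1A1. Of the other markers, POSTN was at 0.57 and 0.54 RPKM in HCl3, 0.19 and 0.14 in Ni-W and 0.43 and 0.44 in UT, LUM was at 0.35 and 0.91 in Ni-E and at most 0.12 elsewhere, PDGFRA was at or under 0.02 and DCN was at 0.00 in all libraries, and the part of other cells in the level of COL1A2 was not tested.

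H19, an imprinted long noncoding RNA, was at 0.52 and 0.39 RPKM in UT, against 7.26 and 6.43 in Ni-E, 2.30 and 1.58 for Ni-W, and 9.06 and 10.26 for HCl3. Its imprinted neighbour IGF2, no member, was at or under 0.10 in UT and Ni-E, at 0.67 and 0.78 in Ni-W and at 0.52 and 0.74 RPKM in HCl3. FAM50B, another imprinted gene, was at 3.28 and 2.35 in UT, 1.61 and 1.30 for Ni-W, and 6.05 and 6.32 RPKM for HCl3. H19 was thus above UT in every nickel-treated group, while the IGF2 values of the washed-out populations overlapped.

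The lost class held genes whose level in UT was at least 3 times that in Ni-W, from nearly absent in Ni-W (SELENBP1) to clearly present (GSTM1). SELENBP1, a selenium-binding protein and an example gene of the study, was at 4.53 and 4.05 RPKM in UT, with 4.52 and 5.36 in Ni-E, 0.09 and 0.09 for Ni-W, and 3.78 and 4.09 for HCl3. Ni-W was at 0.021 times the UT mean and HCl3 at 0.917 times. M1AP, a protein of meiotic cells, was at 2.11 and 1.80 in UT, against 2.84 and 2.78 in Ni-E, 0.12 and 0.00 for Ni-W, and 1.08 and 1.14 RPKM for HCl3. WT1, a transcription factor of the developing kidney and mesothelium, was at 5.86 and 7.53 in UT, with 6.52 and 4.31 in Ni-E, 0.56 and 0.78 for Ni-W, and 2.65 and 2.58 RPKM for HCl3. SELENBP1 in HCl3 overlapped UT, while M1AP and WT1 were under UT in both populations.

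HOXB9, a homeobox transcription factor, was at 3.67 and 4.40 RPKM in UT, against 11.44 and 11.19 in Ni-E, 1.04 and 1.04 for Ni-W, and 3.40 and 3.67 for HCl3. CLMP, a cell adhesion protein, was at 2.92 and 3.11 in UT, 0.55 and 0.56 for Ni-W, and 1.97 and 1.82 RPKM for HCl3. GSTM1, a glutathione transferase with close paralogues that make its reads uncertain, was at 6.92 and 7.62 in UT, 2.13 and 1.38 for Ni-W, and 8.17 and 8.36 RPKM for HCl3. The remaining lost genes were CGREF1, GAL, IFI27, PLBD1, ZNF880, MIR3687 and the noncoding LOC101927497 and LOC102724058. S1PR1, a receptor of sphingosine 1-phosphate, showed the same order, at 1.25 and 1.76 in UT, 0.46 and 0.45 for Ni-W, and 1.54 and 1.48 RPKM for HCl3, but missed the 3-fold limit against UT.

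A further group was switched on in HCl3 from little or nothing. TRIM58, a ubiquitin ligase, was at or under 0.02 RPKM in UT and Ni-E, at 0.11 and 0.11 in Ni-W, and at 2.45 and 2.00 in HCl3. TCEAL7, a transcription elongation factor-like protein, was at 0.00 in the other 6 libraries and at 1.19 and 0.90 RPKM in HCl3, at least 12.4-fold over the level of 3 reads in Ni-W. CD40, a co-stimulatory receptor of the tumour necrosis factor receptor family, was also at 0.00 in the other 6 libraries, at 0.64 and 0.65 RPKM in HCl3, and at least 11.4-fold over that level. SLC2A3, the glucose transporter GLUT3, was at 0.04 and 0.10 in UT, with 0.80 and 0.48 in Ni-E, 0.04 and 0.06 for Ni-W, and 1.26 and 1.39 RPKM for HCl3. TCEAL7 and CD40 were thus seen in HCl3 alone, and SLC2A3 was low in UT and Ni-W and higher in Ni-E and HCl3.

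OR2W3, an olfactory receptor gene 15.5 kb beyond TRIM58 on the same strand (chr1:248058889-248059833, hg19), was at 0.54 and 0.57 RPKM in HCl3 and at or under 0.04 in all other libraries. Of the 15 listed genes around them, the other 13 were at or under 0.05 RPKM in every library. GAL and MRGPRF, a receptor coupled to G proteins, lie 313 kb apart on chromosome 11, and MRGPRF was at 0.44 and 0.54 in UT, 0.43 and 0.35 for Ni-W, and 2.29 and 2.76 RPKM for HCl3. The genes between them (MTL5, CPT1A, MRPL21, IGHMBP2 and MRGPRD) did not meet the rule. In all, 8 of the 52 genes private to HCl3 lay in 4 pairs within 500 kb, the others being MIR4690 with CST6 and PCDHGB7 with PCDHGA11. Chromosome 11 held 9 of the 52 genes private to HCl3 (1.22% of its 736 expressed genes, beside 0.416% over all chromosomes), among them MIR4690 and MIR6752 with few reads, and 1 of the 35 private to Ni-W (0.136%). Chromosome 1 also held 9 of the 52 (0.695% of 1295 genes).

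Protocadherin gamma genes share their last exons and differ in the first. PCDHGA11 was at 0.36 and 0.35 RPKM in UT, against 0.40 and 0.32 in Ni-E, 0.13 and 0.16 for Ni-W, and 2.30 and 2.18 for HCl3, and its neighbour PCDHGB7 at 0.28 and 0.29 in UT, with 0.29 and 0.32 in Ni-E, 0.42 and 0.51 for Ni-W, and 1.62 and 1.60 for HCl3. Of the 23 gamma genes listed, 7 had an RPKM of at least 0.5 in both libraries of either population, and the other 5 of these (PCDHGA1, PCDHGB4, PCDHGA8, PCDHGB5 and PCDHGC3) did not meet the rule. PCDHGB5 was at 4.60 and 5.62 RPKM in Ni-W and at 5.52 and 5.62 in HCl3. How the authors divided reads from shared exons was not stated, so these values are uncertain. With PCDHAC2, 3 of the 17 expressed cadherins and protocadherins of the list were private (17.6%, beside 0.696% of all expressed genes), and 2 of the 3 are these overlapping gamma genes. DSC2, the desmosomal cadherin private to Ni-W, is not on that list and was counted with integrins, laminins and other adhesion molecules (1 of 51).

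**Figure D4:**
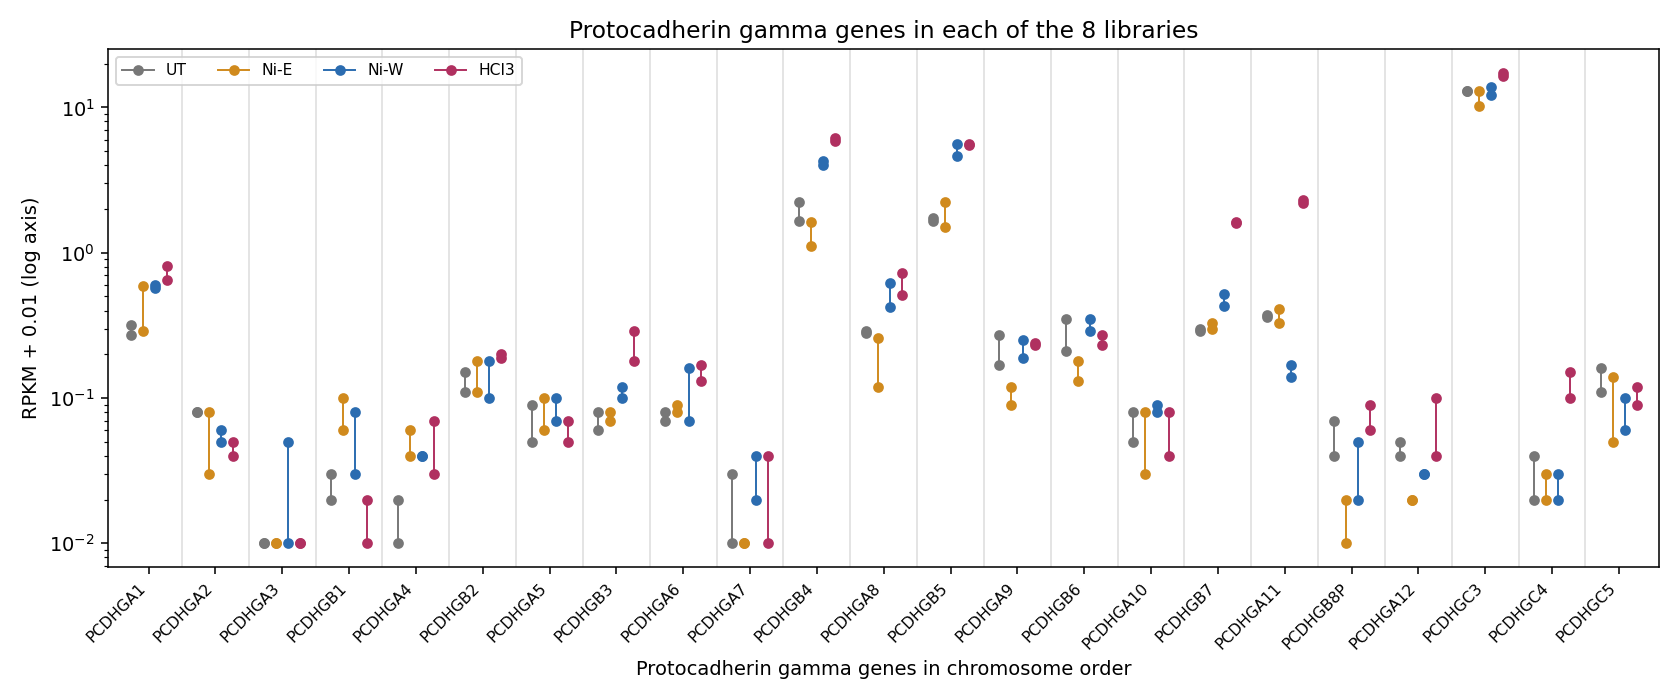
RPKM + 0.01 on a log axis for the 23 protocadherin gamma genes in chromosome order, with each point a library and a line joining the 2 libraries of a group. HCl3 stands apart at PCDHGB7 (1.62 and 1.60 RPKM) and PCDHGA11 (2.30 and 2.18 RPKM), while Ni-W and HCl3 lie side by side at PCDHGB5.

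TSNAX-DISC1, a read-through gene private to Ni-W, and DISC1, private to HCl3, overlap on the same strand of chromosome 1. TSNAX-DISC1 was at 0.00 and 0.17 RPKM in UT, against 0.27 and 0.36 in Ni-E, 0.53 and 0.75 for Ni-W, and 0.00 and 0.01 for HCl3. DISC1, a scaffold protein studied in neurons, was at 0.46 and 0.45 in UT, with 0.51 and 0.33 in Ni-E, 0.28 and 0.15 for Ni-W, and 0.91 and 1.05 RPKM for HCl3. Their gaps run in opposite directions over shared exons, so the reads of either gene are uncertain.

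The remaining genes private to HCl3 included receptors and regulators of moderate level. ECSCR, named for endothelial cells, was at 0.45 and 0.46 RPKM in UT, against 1.23 and 1.14 in Ni-E, 1.19 and 1.48 for Ni-W, and 5.05 and 4.55 for HCl3, while the 4 endothelial markers summed to at most 0.14 in any library. RGS4, a regulator of G protein signalling, was at 0.81 and 0.92 in UT, 0.30 and 0.41 for Ni-W, and 1.45 and 1.27 RPKM for HCl3. FOXL1, a forkhead factor, was at 0.78 and 0.85 RPKM in HCl3 and at 0.18 and 0.23 in Ni-W. IL2RB, a chain of the interleukin 2 receptor, was at 0.77 and 0.92 in HCl3 and at 0.14 and 0.13 RPKM in Ni-W. Nearest inside the limit were ECSCR (3.07), WNT5B (3.08) and RGS4 (3.10), and nearest outside were FLJ22447 (2.92), CNNM1 (2.85) and TMEM215 (2.85). The genes with under 10 reads in a HCl3 library were MIR3687, MIR4690, MIR6515, MIR6752 and MIR24-2.

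GPX7, a glutathione peroxidase of the endoplasmic reticulum, was at 0.65 and 0.66 RPKM in UT, with 0.17 and 0.28 in Ni-E, 0.32 and 0.16 for Ni-W, and 1.28 and 1.63 for HCl3. SUSD3, a membrane protein with a sushi domain, was at 0.24 and 0.31 in UT, with 0.08 and 0.06 in Ni-E, 0.20 and 0.13 for Ni-W, and 1.58 and 1.46 RPKM for HCl3. TCEA3, a transcription elongation factor, was at 0.88 and 0.86 in UT, with 0.36 and 0.38 in Ni-E, 0.28 and 0.43 for Ni-W, and 1.61 and 1.83 RPKM for HCl3. In these 3 genes both Ni-E libraries lay under UT. DESeq2 called none of them between Ni-E and UT, while edgeR called all 3 lower in Ni-E. A DESeq2 fit of all 8 libraries also called these 3, but it used the libraries that chose the members, so nothing is read from it. BHLHE41, a repressor of the circadian clock, was at 0.56 in both HCl3 libraries and at 0.11 and 0.12 RPKM in those of Ni-W, over 0.05 and 0.04 in UT. AFAP1L2, an adaptor of actin filaments, was at 0.62 and 0.68 RPKM in HCl3, with Ni-W and UT between 0.11 and 0.20. The noncoding LINC00707 was at 0.89 and 1.02 RPKM in HCl3, 0.21 and 0.22 in Ni-W and 0.47 and 0.63 in UT. The lost noncoding LOC102724058 was at 0.54 and 0.61 RPKM in HCl3 and 0.86 and 0.98 in UT, and had no read in Ni-W.

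The comparison of Ni-E with UT, which the rule did not use, asked how members stood while nickel was present. Tests were DESeq2 Wald tests on counts, with a gene called at an adjusted P value under 0.05 and a change of at least 1.5-fold. Of the 35 genes private to Ni-W, 13 could be tested and 1 was called higher in Ni-E, with 0 lower, beside 3.84% higher and 2.1% lower among the 14140 genes tested. At an unadjusted P value under 0.05 and a change of at least 1.5-fold, DESeq2 placed 6 of the 35 higher and 1 lower. Among the 17865 genes with a P value, 801 were higher and 429 lower by these limits. Of the 35 genes, 32 had a P value. By adjusted P value and fold, edgeR called 2 higher and 0 lower, beside 661 and 383 of 13566 genes. The called gene was DSC2, with a log2 fold change of 1.05 ± 0.22 (SE, n = 2 and 2, DESeq2 adjusted P = 8.61e-05), and its adjusted P in DESeq2 rose past the threshold when Ni-E replicate 2 was left out. SYK, RCAN2 and PDGFD had no read in UT or Ni-E, so no difference was detectable at this depth. The median log2 fold change was -0.02 over the 13 tested genes and -0.00 over all genes.

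Of the 52 genes private to HCl3, 41 could be tested, of which 9 were called higher in Ni-E and 2 lower, beside the same 3.84% and 2.1% of all genes. The members that passed this test had a detectable level in UT or Ni-E, so the counts describe those members only. The median log2 fold change was 0.10, with 22 genes above 0 and 19 below. H19 rose by a log2 fold change of 3.84 ± 0.27 (SE, n = 2 and 2, DESeq2 adjusted P = 2.04e-42), HOXB9 by 1.44 ± 0.16 (DESeq2 adjusted P = 8.07e-16), SLC2A3 by 3.21 ± 0.60 (DESeq2 adjusted P = 5.32e-06) and ANGPTL4 by 4.55 ± 1.03 (DESeq2 adjusted P = 0.000371). The Ni-E libraries of ANGPTL4 were far apart, at 8.88 and 2.26 RPKM, and both were above UT.

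ITM2A, a membrane protein, rose from 0.12 and 0.16 RPKM in UT to 0.51 and 0.76 in Ni-E (log2 fold change 2.36 ± 0.73, DESeq2 adjusted P = 0.0154). EMR1, an adhesion receptor known from macrophages, rose from 0.29 and 0.23 to 0.78 and 0.77 RPKM (1.56 ± 0.50, DESeq2 adjusted P = 0.0201), and SH3PXD2A, a scaffold of podosomes, from 0.11 and 0.09 to 0.23 and 0.30 (1.38 ± 0.41, DESeq2 adjusted P = 0.0106). OASL (1.61 ± 0.58, DESeq2 adjusted P = 0.0485) and CGREF1 (0.96 ± 0.34, DESeq2 adjusted P = 0.0413) were close to the threshold. COL1A2 fell by 2.69 ± 0.73 on the log2 scale (DESeq2 adjusted P = 0.00452) and COCH fell by 0.92 ± 0.32 (DESeq2 adjusted P = 0.0392). These 7 genes lost their call in DESeq2 when any of the 4 libraries was left out. ANGPTL4 lost it without UT replicate 2 and SLC2A3 without Ni-E replicate 1, and H19 and HOXB9 kept it without each of them. SELENBP1, WNT5B, GSTM1 and WT1, abundant in UT, were not called, with log2 fold changes of 0.17 ± 0.22, 0.10 ± 0.18, 0.08 ± 0.20 and -0.29 ± 0.21 (DESeq2 adjusted P = 0.715, 0.813, 0.864 and 0.448).

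**Figure D5:**
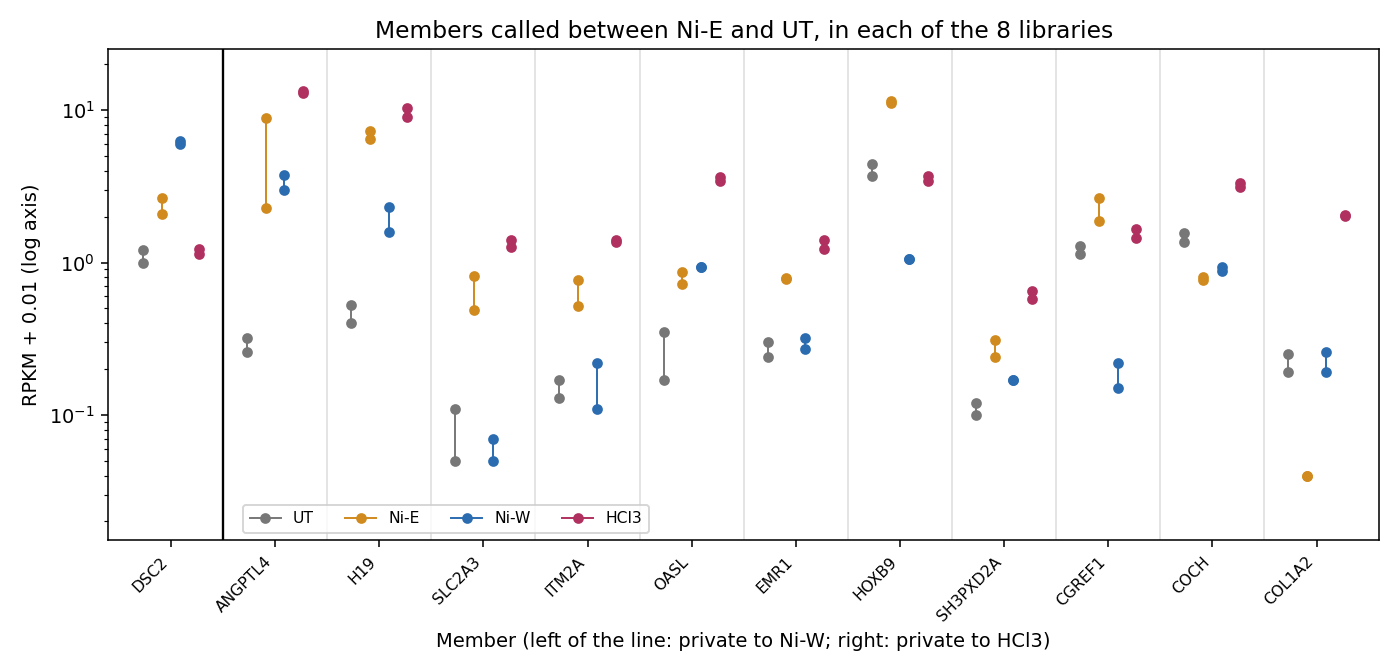
RPKM + 0.01 on a log axis for the 12 members called between Ni-E and UT, with each point a library and a line joining the 2 libraries of a group. DSC2 is private to Ni-W and the other 11 to HCl3; H19 shows Ni-E (7.26 and 6.43 RPKM) far above UT and near HCl3, and COL1A2 shows Ni-E at 0.03 and 0.03 RPKM, under all other groups.

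After the wash-out, the genes called in Ni-E stood at different levels in the population that had not been high. ITM2A, EMR1 and SLC2A3 in Ni-W overlapped UT, ANGPTL4, H19, OASL and SH3PXD2A in Ni-W were above UT, and HOXB9 and CGREF1 in Ni-W were under UT. In HCl3, HOXB9 was at or just under UT and well under Ni-E, and the other 8 genes called higher were above UT.

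Between HCl3 and Ni-W, DESeq2 called 31 of the 35 genes private to Ni-W lower in HCl3 and 46 of the 52 private to HCl3 higher, against 1.72% lower and 3.18% higher of the 14605 genes tested. Those libraries chose the members, and nothing is read from these counts. Not called were the 9 small RNAs and DISC1.

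By function, none of the listed 16 hypoxia-inducible genes, 4 metallothioneins or 51 ion channel genes expressed in the washed-out populations was private to either. These lists do not hold ANGPTL4, SLC2A3 or BHLHE41, which are known to respond to hypoxia and were private to HCl3. They also do not hold LRRC8B, the anion channel subunit that was private to Ni-W. The median log2 ratio of HCl3 to Ni-W was 0.43 over the hypoxia list, the largest of all lists, and 0.36 over the metallothioneins. The list of G protein-coupled receptors gave 3 members of 56 (LPHN2, P2RY1 and S1PR1), although the members MRGPRF, EMR1 and OR2W3 are also of this class and are not on the list. Solute carriers gave 3 of 212 (SLC25A27, SLC7A4 and SLC2A3) and zinc finger proteins 3 of 446 (ZNF486, ZNF518B and ZNF880). The lists were made with earlier results of these data known, and their shares are given as a description.

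The medians of transcript GC content and gene span also differed between the sets. The median GC content of the longest transcript was 44.2% for the genes private to Ni-W (34 of 35 with a value), 52.6% for those private to HCl3 (49 of 52) and 47.8% for all genes expressed in either population (12216 of 12492). The ranges between the quartiles of GC content overlapped, at 40.3 to 52.4%, 47.9 to 57% and 41.6 to 56.2% in the same order. The median gene span, small RNAs included, was 36.11 kb, 13.68 kb and 24.7 kb in the same order. The part of GC content and gene length in the selection was not tested.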

How the data were processed

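RNA-Seq of 8 BEAS-2B libraries was analysed, with groups taken from the labels. Per the labels and the study's methods, the authors used STAR 2.4 to align reads to hg19, dropped those that aligned to several places, and deposited read counts per RefSeq gene. The authors also deposited RPKM values, rounded to 2 decimals. RPKM did not follow the count alone in every gene. DISC1 had 94 and 11 reads in the Ni-W libraries, at 0.28 and 0.15 RPKM. The rule used RPKM and the tests used counts, so they can differ for such genes. Whether strand was used in counting was not stated. The members and gene lists were chosen with earlier results of these data known.

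The rule was applied to the RPKM values as deposited (minimum 0.5, 3-fold). Ni-E was compared with UT on the counts with DESeq2 1.42.0 in R 4.3.3 (two-sided Wald test, Benjamini-Hochberg adjustment, only the 4 libraries of the pair), called at an adjusted P value under 0.05 and 1.5-fold. A gene that DESeq2 left without an adjusted P value was counted as not tested. With 2 libraries a group the spread is shared across genes, and no regrouping of single values can reach 0.05. A level of 3 reads was the floor, and floors cover counting error only because reads carried no molecular identifiers.

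Named genes were those with the 12 highest own levels and 10 largest ratios in each direction (at least 50 reads), members of the gene lists up to 4 a list, loci of at least 3 genes, called members, study examples and the genes nearest the limit. Other members were named to account for all of them, after their values were seen. Alternatives were edgeR 4.0.16 quasi-likelihood, limma 3.58.1 with log2-transformed RPKM (pseudocount 1 or 0.1), TMM factors, other filters and folds, all 8 libraries in one fit, a replicate block and each library left out. The scripts were tested on simulated data. Figures were drawn with matplotlib 3.10.9.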

Additional observations from a re-analysis of the deposited data

Results flagged for a closer look

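In 6 genes private to Ni-W, both Ni-W libraries were above and both HCl3 libraries below both UT libraries. They were CD74 (mean UT 2.56 RPKM), ZNF518B (2.31), L3MBTL4 (0.715), EPB41L4A (0.52), MIR4745 (0.465) and RBP5 (0.405). In 16 genes private to HCl3 the populations lay on the other sides of UT, with HCl3 above and Ni-W below. Their mean UT levels in RPKM were 8.41 for WNT5B, 7.27 for GSTM1, 7.09 for GAL, 2.81 for FAM50B, 1.46 for COCH, 1.21 for CGREF1, 0.87 for TCEA3, 0.865 for RGS4, 0.655 for GPX7, 0.55 for LINC00707, 0.49 for MRGPRF, 0.455 for DISC1, 0.395 for MIR24-2, 0.355 for PCDHGA11, 0.295 for INHBB and 0.275 for SUSD3. That the populations moved opposite ways from UT was not tested, and the rule that chose the members fixed which population was the higher. MIR4745 and MIR24-2 rest on 2 reads in a library.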

How the results depend on the processing

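The number of genes private to Ni-W moved from 35 to 14 at a minimum of 1 RPKM, to 76 at 2-fold, to 18 at 5-fold and to 19 without genes that overlap another listed gene. The number private to HCl3 moved from 52 to 122 at 2-fold and to 23 at 5-fold. When each library was left out in turn, the rule found between 47 and 75 genes for Ni-W and between 75 and 99 for HCl3, since fewer values then had to pass, and every member stayed in. Scaling by DESeq2 size factors or TMM factors gave 36 and 52 genes and retained all members. At 5-fold against UT, 1 gene private to Ni-W and 7 private to HCl3 were lost. Without a UT library, between 3 and 4 genes private to Ni-W were lost and between 28 and 29 gained, and for HCl3 15 were lost and between 24 and 28 gained. Within 100 kb, 4 genes private to HCl3 had a neighbour in the set, against 8 within 500 kb.

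For Ni-E against UT, edgeR called 2 genes private to Ni-W higher and 5 private to HCl3 lower, beside 661 higher and 383 lower of all 13566 genes tested. A 2-fold threshold left 1 private to HCl3 lower, beside 116 of 14140. All 8 libraries in one fit called 7 private to Ni-W higher and 5 private to HCl3 lower, beside 740 and 402 of 14040. That fit used the libraries that chose the members, and with it 31 genes private to Ni-W were tested, against 13 with 4 libraries. Nothing is read from its counts. limma on log2(RPKM + 1) or log2(RPKM + 0.1) called 0 members, where it also called 0 of all genes. Without a library in turn, fewer genes were called among those private to HCl3 and also among all genes, the lone library being assumed to vary like the others. The direction of all 12 called members was retained under every alternative.

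The replicate numbers of Ni-E and UT did not pair the libraries (r of same-number deviations = -0.106 across 13408 genes). With the replicate block, 4 genes private to HCl3 were called higher and 0 lower, and 1 private to Ni-W higher and 0 lower. Of all 13462 genes tested, 302 were called higher and 189 lower, against 543 and 297 of 14140 without the block. The crossed pairing, added after the data were seen, gave 4, 1, 1 and 0, beside 401 higher and 235 lower of 13801 genes. With 2 libraries a group, low genes limit these counts: 22 of the 35 genes private to Ni-W were too low to be tested.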
